A study of Homo sapiens with 10 samples.

Results

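The B cell receptor signalling chain is described here as 41 named genes, from the receptor's signalling subunits at the membrane to its calcium, PI3K and NF-kappaB branches. A gene's probe sets were those whose platform annotation names that gene alone, and where a gene had several, the probe set with the highest mean over all 10 arrays was taken as its main one. Of the 41 genes, 40 were found with 69 probe sets, out of 8226 genes and 12558 probe sets in all. PIK3CA was not analysed here. The expression levels come from ST486, a human Burkitt's lymphoma line, sampled 60 h after lentiviral delivery of a short hairpin RNA (shRNA). The groups were 5 arrays with STK38 shRNA, which targets the kinase STK38 (NDR1), and 5 arrays with non-target control shRNA. Both groups carried a lentiviral vector, a single hairpin sequence stands for the knockdown, and nothing in the labels ties a replicate to its own culture, so the p-values measure the spread between arrays, which may be technical.

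The B cell receptor is a membrane immunoglobulin held together with CD79A and CD79B, whose cytoplasmic tails carry the tyrosines that Src-family kinases phosphorylate. SYK docks there and activates BTK and the adaptor BLNK, which bring phospholipase C gamma to the membrane. The lipase splits its substrate into a messenger that opens calcium channels of the endoplasmic reticulum and another that activates protein kinase C and RAS exchange factors, while PI3K feeds AKT. In Burkitt's lymphoma, tonic signalling of this receptor through PI3K is known to sustain the cells.

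In cells with STK38 shRNA the kinases SYK and BTK, the adaptors BLNK and GRB2, the exchange factor RASGRP2, the calcium channel ITPR3, the surface protein CD81 and the kinase PRKCB were lower than in control cells. The receptor subunit CD79A, the tetraspanin CD53, the phospholipase PLCG2 and the adaptor HCLS1 were higher. Of these calls, that of RASGRP2 held at 1 of its 3 probe sets, and that of HCLS1 was lost in 9 of 19 alternative settings. PRKCB was called at 1 of its 4 probe sets, where it was below background on every STK38 shRNA array. No member of the PI3K branch passed the test. At the main probe sets, called changes ran from a fall of 1.36 to a rise of 0.64 on the log2 scale.

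The targeted gene was measured by 3 probe sets. The brightest gave 2.95, 2.90, 2.95, 2.46 and 2.88 on the STK38 shRNA arrays, against 5.24, 4.80, 4.85, 4.92 and 5.28 on the non-target arrays (log2 signal). STK38 was thus lower on every knockdown array, and all 3 probe sets were called lower. MYC, the translocated oncogene of these cells, averaged 7.30 ± 0.34 in STK38 shRNA cells and 8.68 ± 0.25 in non-target cells at its brightest probe set (SD, n = 5 each), and it was called lower. Among the arrays, replicate 4 of the STK38 shRNA group was the odd one, correlating on average at 0.982 with the other arrays of its group, where these had 0.992 to 0.993 and the non-target arrays had 0.994 to 0.996. Its 75th percentile of signal was 3.54, where the other 9 arrays had 3.91 to 4.02. Values without this array are given where they change a call or move a value markedly. An array's background was the 90th percentile of its 23 negative controls (mouse, yeast and reverse-strand probe sets) and lay between 2.36 and 2.66. By this measure 24 of the 40 members were above background on all 10 arrays and 8 on none. RNA came from whole cultures, so fewer cells expressing a gene and less of its RNA per cell cannot be told apart.

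Of the 40 members, 35 had a main probe set bright enough to be tested, and 12 of them were called, meaning a limma adjusted p under 0.05 over all 7535 probe sets tested. Among these, 8 were lower and 4 higher with STK38 shRNA. The same rule called 31.0% of all 5403 genes tested, with 15.8% lower and 15.2% higher, so the members' 34.3% is near that of the whole table. By probe set, 29.9% of the table was called. The arrays of one group lay wholly apart from those of the other at 10 of the 35 members, as they did at 23.0% of all genes and 22.1% of probe sets. Over the 35 members the median log2 difference was 0, beside 0.019 over all genes. Without STK38 shRNA replicate 4, 8 members were lower and 5 higher, where 16.9% of all genes were called lower and 21.7% higher, 38.6% in all.

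**Figure D1:**
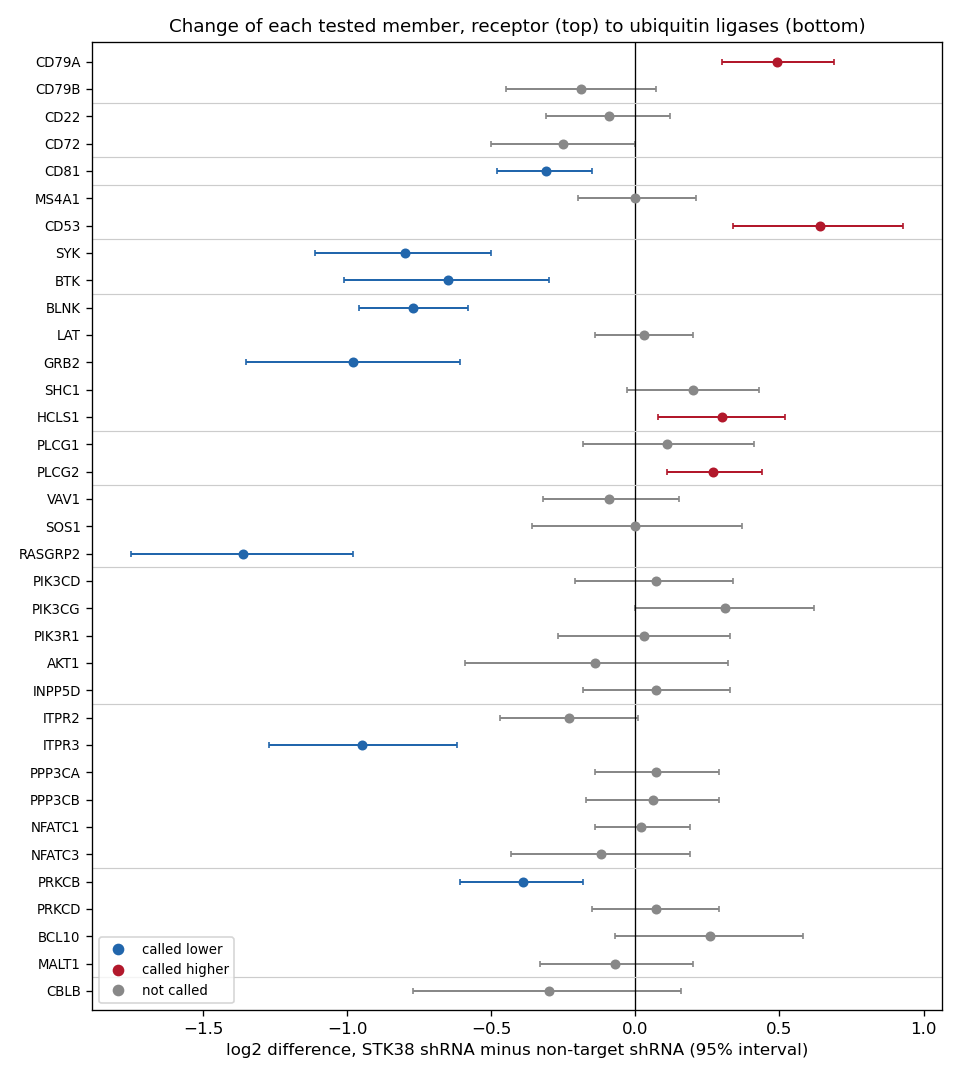
Log2 difference of each tested member (STK38 shRNA minus non-target shRNA, 5 arrays each), with its 95% limma interval, from receptor subunits at the top to ubiquitin ligases at the bottom. Grey lines separate the steps of the chain. The 8 members called lower run from -1.36 for RASGRP2 to -0.31 for CD81, and the 4 called higher from 0.27 for PLCG2 to 0.64 for CD53.

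The receptor subunits differed from each other. CD79A had 8.75, 8.87, 8.82, 8.57 and 8.54 on the STK38 shRNA arrays, against 8.32, 8.23, 8.39, 8.15 and 8.0 on the non-target arrays (log2 signal). Every STK38 shRNA array was above every control array, a rise of 0.49 (SE 0.090, 1.41-fold, limma adjusted p = 0.000689). Its other probe set rose by 0.34 (adjusted p = 0.0145) with overlapping groups. CD79B, the partner subunit, had 6.10, 6.00, 6.28, 5.85 and 5.71 on the STK38 shRNA arrays, against 6.33, 6.03, 5.98, 6.21 and 6.32 on the non-target arrays. These ranges overlapped, and its difference of -0.19 had a 95% interval of -0.45 to 0.07 (limma adjusted p = 0.297).

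Of the main probe sets of co-receptors and their partners only that of CD81 was called. CD22, an inhibitory lectin that recruits phosphatases, had a log2 difference of -0.09 (95% interval -0.31 to 0.12). Its dimmer probe set had 0.17 (limma adjusted p = 0.304) and was called higher, by 0.26, without STK38 shRNA replicate 4 (adjusted p = 0.0297). CD72, also inhibitory, had -0.25 (-0.50 to 0.00, adjusted p = 0.139). CD81, a tetraspanin of the B cell co-receptor complex, had 8.57, 8.70, 8.85, 8.62 and 8.56 on the STK38 shRNA arrays, against 9.10, 8.94, 9.08, 8.95 and 8.79 on the non-target arrays. It fell by 0.31 (SE 0.077, limma adjusted p = 0.00628), and the groups touched where non-target replicate 5 lay below the highest STK38 shRNA array. Its probe set carries the suffix that Affymetrix gave to sets for which some design rules were dropped, and there is no other to compare it with. CR2, the complement receptor of the same complex, was at 1.24 to 1.63 in STK38 shRNA cells and 1.25 to 1.46 in non-target cells, below background on all 10 arrays, and was not tested.

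Among the tetraspan proteins, MS4A1 (CD20), the target of rituximab, was not called. Its signal averaged 8.69 ± 0.17 with STK38 shRNA and 8.69 ± 0.17 with non-target shRNA (SD, n = 5 each), and the 95% interval of the difference was -0.20 to 0.21. CD53, a tetraspanin of leukocytes, had 5.07, 5.16, 5.29, 4.81 and 5.19 on the STK38 shRNA arrays, against 4.08, 4.62, 4.46, 4.70 and 4.49 on the non-target arrays. The groups did not overlap, and CD53 rose 1.55-fold (log2 difference 0.64, SE 0.14, limma adjusted p = 0.00257). CD37, a related tetraspanin, was at 0.93 to 1.07 with STK38 shRNA and 0.73 to 0.84 with non-target shRNA, far below background on every array, so the probe set gives no level for it.

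Both tyrosine kinases of the chain fell. SYK had 5.51, 5.41, 5.66, 4.85 and 5.15 on the STK38 shRNA arrays, against 6.20, 6.24, 5.99, 5.99 and 6.16 on the non-target arrays. All knockdown arrays were below all controls, a fall of 0.80 on the log2 scale (SE 0.14, limma adjusted p = 0.000523), and the other SYK probe sets fell by 0.59 (adjusted p = 0.0158) and 0.78 (adjusted p = 0.0342). BTK, the kinase lost in X-linked agammaglobulinaemia, had 6.20, 6.04, 6.14, 5.23 and 6.20 on the STK38 shRNA arrays, against 6.43, 6.69, 6.67, 6.77 and 6.52 on the non-target arrays. Its highest STK38 shRNA value lay below its lowest control, and BTK fell by 0.65 (SE 0.17, limma adjusted p = 0.00733). Replicate 4 was the lowest knockdown array for both. Without it SYK fell by 0.69 (adjusted p = 0.000123) at its main probe set and by 0.44 and 0.48 at the others, and BTK fell by 0.47 (adjusted p = 0.000958).

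**Figure D2:**
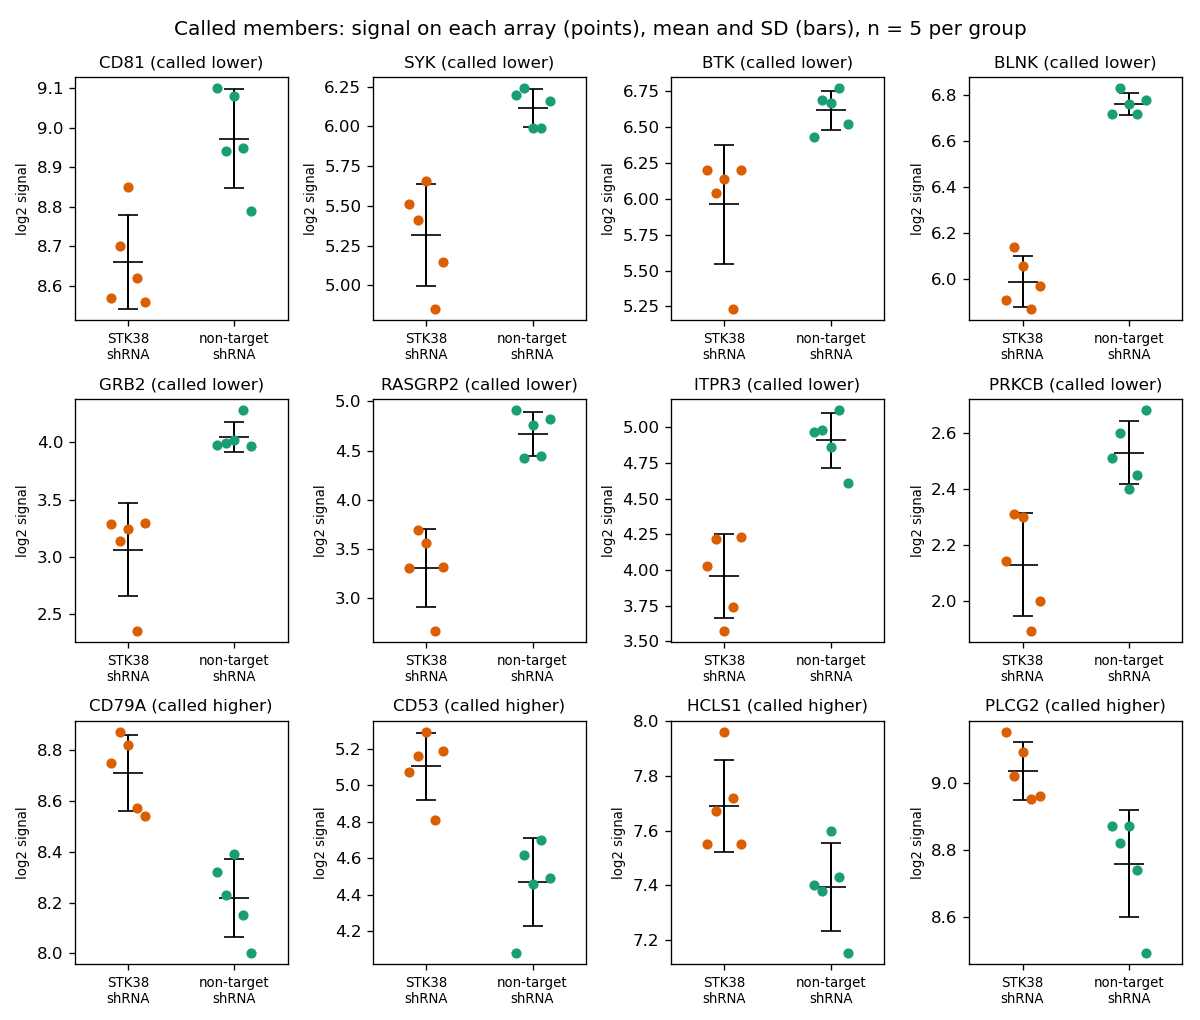
Log2 signal of the 12 called members on each array (points), with the mean and SD of each group (bars, n = 5); each panel has its own log2 scale, which does not start at 0. The groups overlap in the panels of CD81 and HCLS1 and are apart in the other 10.

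Of the 5 adaptors tested, 2 fell and 1 rose. BLNK (SLP-65), the scaffold that links SYK to BTK and phospholipase C gamma, had 5.91, 6.14, 6.06, 5.87 and 5.97 on the STK38 shRNA arrays, against 6.72, 6.83, 6.76, 6.72 and 6.78 on the non-target arrays. No value in either group came near the other, and the fall of 0.77 (SE 0.088, 1.71-fold) had a limma adjusted p of 1.18e-05. GRB2, which carries SOS to receptors, had 3.29, 3.14, 3.24, 2.35 and 3.30 on the STK38 shRNA arrays, against 3.98, 3.99, 4.02, 4.28 and 3.97 on the non-target arrays. The lowest value, that of replicate 4, was below background, and the groups were apart at both probe sets, with falls of 0.98 (SE 0.17, limma adjusted p = 0.000521) and 0.95 (adjusted p = 0.000260). Without replicate 4 the fall at the main probe set was 0.80 (adjusted p = 1.38e-05).

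HCLS1 (HS1), an actin-binding substrate of the receptor's kinases, had 7.55, 7.67, 7.96, 7.72 and 7.55 on the STK38 shRNA arrays, against 7.40, 7.38, 7.60, 7.43 and 7.15 on the non-target arrays. The groups overlapped, and its rise of 0.30 (SE 0.10, limma adjusted p = 0.0356) was not called without STK38 shRNA replicate 2 or 3, or without non-target replicate 1, 2, 4 or 5, with adjusted p-values of 0.0588 to 0.0957. SHC1, which couples receptors to GRB2, had a difference of 0.20 (95% interval -0.03 to 0.43, adjusted p = 0.201). LCP2 (SLP-76), the counterpart of BLNK used in T cells, and the T cell adaptor LAT were below background on all arrays. LAT was at 2.10 ± 0.12 with STK38 shRNA and 2.07 ± 0.09 with non-target shRNA (SD, n = 5 each). LCP2 was at 1.86 ± 0.23 with STK38 shRNA and 1.78 ± 0.22 with non-target shRNA (SD, n = 5 each) and was not tested.

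Of the phospholipases, 1 of 2 was called, and it rose. PLCG2, the B cell isoform that BLNK and BTK activate, had 9.15, 9.02, 9.09, 8.95 and 8.96 on the STK38 shRNA arrays, against 8.87, 8.82, 8.87, 8.74 and 8.49 on the non-target arrays. Every STK38 shRNA value was above every control, a rise of 0.27 (SE 0.079, 1.21-fold, limma adjusted p = 0.0155), and the other probe set rose by 0.21 (adjusted p = 0.0342). PLCG1, the isoform more used in T cells, had a difference of 0.11 (95% interval -0.18 to 0.41, adjusted p = 0.606), and of 0.24 without STK38 shRNA replicate 4 (adjusted p = 0.0519).

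Of the exchange factors for RAS and RAC, 1 of 3 tested was called. RASGRP2, which loads RAP1 with GTP when calcium and diacylglycerol rise, had 3.30, 3.69, 3.56, 2.66 and 3.32 on the STK38 shRNA arrays, against 4.91, 4.42, 4.76, 4.44 and 4.82 on the non-target arrays at its main probe set. The groups were far apart, a fall of 2.57-fold (log2 difference -1.36, SE 0.18, limma adjusted p = 4.60e-05), and without STK38 shRNA replicate 4 the difference was -1.20. The other RASGRP2 probe sets did not show it: one had -0.12 (adjusted p = 0.603) and the other was below background on all arrays (adjusted p = 0.103). The mean over its 3 probe sets fell by 0.57 (adjusted p = 0.00115). RASGRP2 is therefore a fall at 1 of 3 probe sets. VAV1, the RAC exchange factor of blood cells, had -0.09 (95% interval -0.32 to 0.15). SOS1, the RAS exchange factor that GRB2 carries, averaged 3.38 ± 0.39 with STK38 shRNA and 3.37 ± 0.18 with non-target shRNA (SD, n = 5 each, adjusted p = 0.988), and had 0.17 without replicate 4 (adjusted p = 0.309). VAV2 was below background on all arrays and was not tested.

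None of the 5 PI3K branch members was called, and 1 of them had an unadjusted p under 0.05. PIK3CD, the catalytic subunit most used in B cells, had differences between -0.06 and 0.11 at its 4 probe sets, and its main one had a 95% interval of -0.21 to 0.34. PIK3CG, the subunit coupled to G proteins, had 3.18, 3.52, 3.00, 2.80 and 3.27 on the STK38 shRNA arrays, against 3.07, 2.75, 2.53, 2.88 and 2.97 on the non-target arrays. The groups overlapped, with a difference of 0.31 (limma adjusted p = 0.131). Without STK38 shRNA replicate 4 this difference was 0.40 and was called (adjusted p = 0.0189). The regulatory subunit PIK3R1 had 0.03 (95% interval -0.27 to 0.33). AKT1, the kinase downstream, had -0.14 (-0.59 to 0.32), and 0.03 without replicate 4. INPP5D (SHIP1), which removes the phosphate that PI3K adds, had 0.07 (-0.18 to 0.33).

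In the calcium branch, the channel ITPR3 fell, and the main probe sets of calcineurin and NFAT genes did not pass the test. ITPR3, an inositol trisphosphate receptor of the endoplasmic reticulum, had 4.03, 4.22, 3.57, 3.74 and 4.23 on the STK38 shRNA arrays, against 4.97, 4.98, 4.86, 5.12 and 4.61 on the non-target arrays. No knockdown array reached the controls, and ITPR3 fell 1.93-fold (log2 difference -0.95, SE 0.15, limma adjusted p = 0.000233). At the other probe set it fell by 1.40 (adjusted p = 0.000169), again with every knockdown array below every control, and by 1.16 without replicate 4. ITPR2, its relative, was above background on 1 STK38 shRNA array and 4 non-target arrays, with a difference of -0.23 (95% interval -0.47 to 0.01, adjusted p = 0.143).

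Calcineurin is the phosphatase that sends NFAT to the nucleus. Its catalytic subunit PPP3CB had 0.06 at the main probe set (95% interval -0.17 to 0.29). The dimmer PPP3CB probe set was called higher (limma adjusted p = 0.0420), but it exceeded background on 3 STK38 shRNA arrays and 0 non-target arrays, with a mean of 2.42 ± 0.44 with STK38 shRNA (SD, n = 5), so no fold is given. The probe sets of this gene thus do not give the same answer. PPP3CA was at 1.99 ± 0.22 with STK38 shRNA and 1.91 ± 0.12 with non-target shRNA (SD, n = 5 each), below background throughout. NFATC3, a transcription factor that calcineurin activates, had -0.12 (95% interval -0.43 to 0.19) and -0.02 at the other probe set above background; without replicate 4 these were 0.01 and 0.11. NFATC1, of the same family, was below background on all arrays, at 2.17 ± 0.08 with STK38 shRNA and 2.14 ± 0.09 with non-target shRNA (SD, n = 5 each).

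On the branch to NF-kappaB, PRKCB, the protein kinase C isoform that B cells need for receptor-driven NF-kappaB activation, had 2.14, 2.31, 2.30, 1.89 and 2.00 on the STK38 shRNA arrays, against 2.51, 2.60, 2.40, 2.45 and 2.68 on the non-target arrays. The groups did not overlap (limma adjusted p = 0.00805). It exceeded background on all 5 control arrays and on 0 knockdown arrays. PRKCB was therefore at least 1.05-fold lower, counting the knockdown arrays at their background. Of the 4 PRKCB probe sets 2 were tested, and the second was below background on all arrays and not called (limma adjusted p = 0.158). The untested PRKCB probe sets were below background on all arrays too. PRKCD, a protein kinase C that restrains B cells, had 0.07 (95% interval -0.15 to 0.29). BCL10 and MALT1, partners in a complex that turns on NF-kappaB, had 0.26 (-0.07 to 0.58, adjusted p = 0.244) and -0.07 (-0.33 to 0.20, adjusted p = 0.762).

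Of the ubiquitin ligases that end receptor signals, CBLB had 3.24, 3.18, 2.75, 1.93 and 3.23 on the STK38 shRNA arrays, against 2.84, 3.08, 3.39, 3.29 and 3.24 on the non-target arrays. The low mean of the knockdown group came from replicate 4. The difference was -0.30 (limma adjusted p = 0.355) with that array and -0.07 (adjusted p = 0.727) without it. CBL was below background on all arrays and was not tested.

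The called members were chosen on these same arrays, so their values by array are a description. Of the 8 members called lower, all 8 lay below every control on STK38 shRNA replicates 1, 2, 4 and 5, and 7 did on replicate 3. The median of these 8 was 1.22 below the control mean on replicate 4 (log2 deviation -1.22) and between -0.71 and -0.59 on the others. The 4 members called higher had median deviations of 0.26 to 0.59. The 23 uncalled members had medians of -0.12 on replicate 4 and 0.00 to 0.07 on the others. On replicate 4, 9 of them lay below every control, against 2 to 6 on the other knockdown arrays. The share of all genes below every control on an array was not counted, so these counts show nothing particular to the members. The part of replicate 4's lower signal in these falls was not tested beyond leaving it out, which kept all 8 calls.

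**Figure D3:**
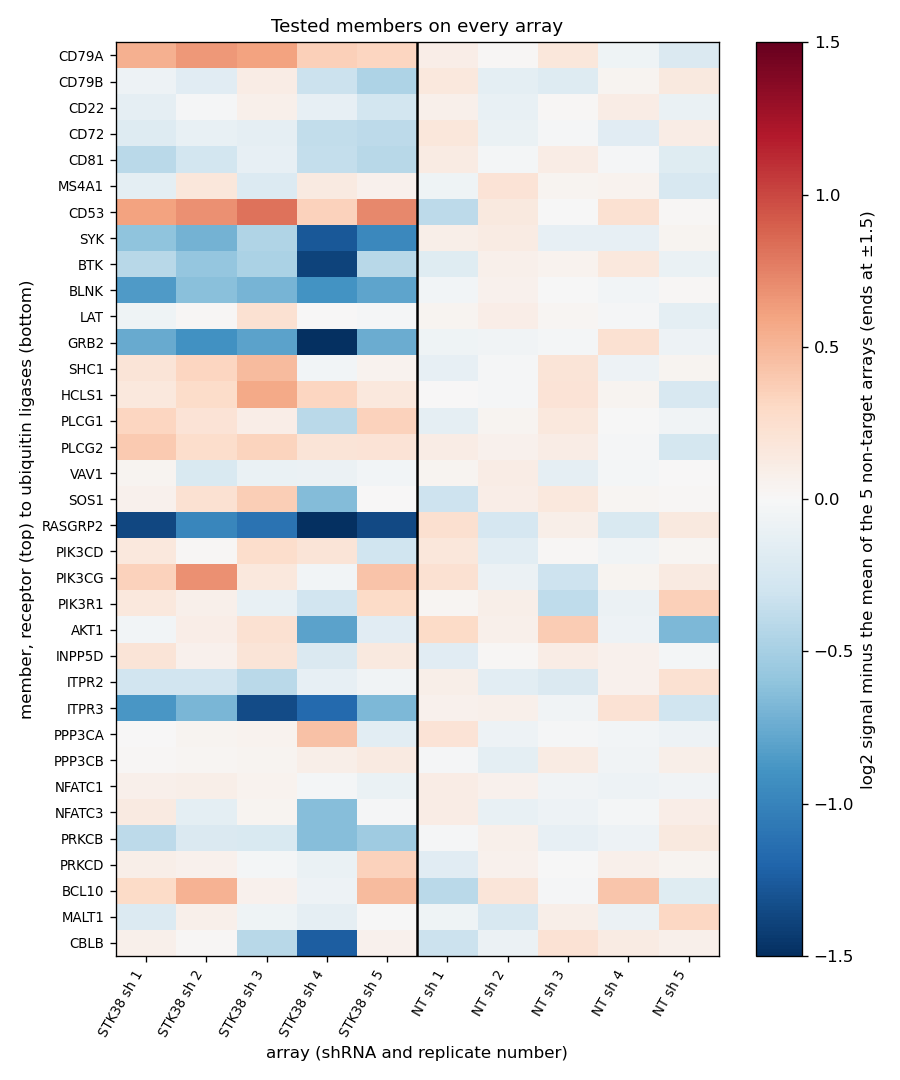
Log2 signal of the 35 tested members on each array, minus the gene's mean over the 5 non-target arrays (colour, ends at ±1.5); STK38 shRNA arrays are left of the line. SYK, BTK, BLNK, GRB2, RASGRP2 and ITPR3 are blue on all 5 knockdown arrays and deepest, except ITPR3, on replicate 4.

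Whether related members changed unequally was tested within pairs. For each pair the log2 difference between the main probe sets was taken on each array and compared between groups with a two-sided exact permutation test, adjusted over 15 pairs. The smallest p that 5 against 5 arrays allow is 0.00794. The CD79A change exceeded that of CD79B by 0.68, and the groups did not overlap (exact p = 0.00794, adjusted p = 0.0397). ITPR3 fell by 0.72 more than ITPR2, which was near background (log2 difference in change -0.72, exact p = 0.0159, adjusted p = 0.0476). PRKCB over PRKCD passed as well (exact adjusted p = 0.0397), but PRKCB was below background on the knockdown arrays, so no size is given. With means over all probe sets of each gene that pair did not pass (exact adjusted p = 0.0595).

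For the other pairs with both members tested, no unequal change was shown. SYK over BTK had -0.15 (exact p = 0.365, adjusted p = 0.40), and leaving out single arrays gave -0.22 to -0.05. PLCG2 over PLCG1 had 0.16 (exact p = 0.325, adjusted p = 0.40), so the rise of PLCG2 was not shown to differ from the change of PLCG1. CD22 over CD72 had 0.15, PIK3CD over PIK3CG -0.25, NFATC1 over NFATC3 0.14, PPP3CA over PPP3CB 0.01 and BCL10 over MALT1 0.32, with exact adjusted p-values of 0.289 to 0.976. NFATC1 and PPP3CA were below background, so their pairs carry little information. In 5 pairs a member was under the filter on low signal. Of these, BLNK over LCP2 (-0.85, exact adjusted p = 0.0397) and CD37 over CD53 (-0.45, exact adjusted p = 0.0476) passed, but LCP2 and CD37 have no measured level here.

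**Figure D4:**
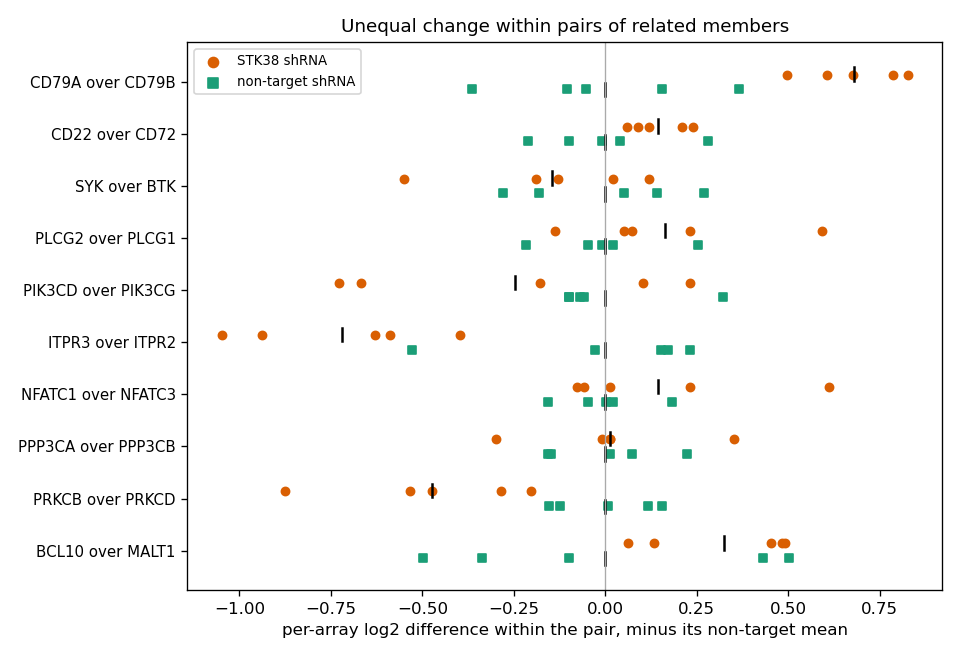
Log2 difference between the members of a pair on each array, for the 10 pairs with both members tested, minus its mean over the non-target arrays (circles, STK38 shRNA; squares, non-target shRNA; black bars, group means; n = 5 each). CD79A over CD79B lies to the right and PRKCB over PRKCD to the left of all controls; the groups overlap in the other 8 of these pairs, ITPR3 over ITPR2 included.

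Promoter sequence was available for 32 members in RefSeq tables of build GRCh38.p14, as windows from 250 bases before to 50 after each transcript start. They were searched on both strands for the E-box CACGTG bound by MYC and MAX, the octamer ATGCAAAT bound by OCT factors and their B cell coactivator, and the core GAGGAAG of sites of PU.1, a factor of B and myeloid cells. The E-box was in a window of 3 members, CR2, NFATC3 and VAV2, beside 8.77% of all genes and 13.1% of the genes tested. It was in 0 of the 7 called lower and 0 of the 4 called higher. Over the whole table it was in 14.7% of genes called lower and 12.9% of those called higher. So few members cannot show a difference from these shares. The octamer was in 3 members, ITPR3 and PRKCB, which fell, and CD53, which rose, beside 2.19% of all genes and 2.0% of the genes tested. The PU.1 core was in 15 of 32 members, which is 46.9%, beside 16.1% of all genes and 20.4% of the genes tested. Counted by window it was in 36.5% of the members' windows and 13.6% of all. Windows of the same gene can overlap, so a site can be counted again, as it is for CBLB. It was found in 2 of the 7 called lower (SYK and BTK), in 2 of the 4 called higher (CD53 and PLCG2) and in 9 of the 18 not called. The octamer and the PU.1 core thus stood in members that fell and in members that rose, as 5 windows show, with each match in capitals. The octamer windows are printed for both members that fell and for the one that rose, and the PU.1 windows for BTK, which fell, and PLCG2, which rose.
ITPR3, chr6:33621072-33621371, strand +: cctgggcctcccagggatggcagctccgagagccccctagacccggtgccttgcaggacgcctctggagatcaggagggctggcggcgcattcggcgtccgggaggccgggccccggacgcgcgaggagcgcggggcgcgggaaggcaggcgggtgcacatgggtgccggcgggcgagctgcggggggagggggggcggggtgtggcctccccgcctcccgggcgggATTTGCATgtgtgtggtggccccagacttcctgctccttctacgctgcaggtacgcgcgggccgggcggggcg
PRKCB, chr16:23835733-23836032, strand +: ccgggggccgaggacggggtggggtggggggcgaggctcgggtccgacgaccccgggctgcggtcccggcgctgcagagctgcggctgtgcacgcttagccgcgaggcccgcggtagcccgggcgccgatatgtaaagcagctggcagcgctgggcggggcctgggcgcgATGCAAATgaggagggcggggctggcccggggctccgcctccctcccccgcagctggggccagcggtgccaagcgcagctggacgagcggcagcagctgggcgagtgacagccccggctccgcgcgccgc
CD53, chr1:110870960-110871259, strand +: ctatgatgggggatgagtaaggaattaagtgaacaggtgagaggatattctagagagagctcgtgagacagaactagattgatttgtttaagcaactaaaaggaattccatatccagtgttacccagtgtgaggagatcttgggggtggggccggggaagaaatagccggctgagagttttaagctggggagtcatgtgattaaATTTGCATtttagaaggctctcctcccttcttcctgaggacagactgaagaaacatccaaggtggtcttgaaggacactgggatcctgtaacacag
BTK, chrX:101390747-101391046, strand -: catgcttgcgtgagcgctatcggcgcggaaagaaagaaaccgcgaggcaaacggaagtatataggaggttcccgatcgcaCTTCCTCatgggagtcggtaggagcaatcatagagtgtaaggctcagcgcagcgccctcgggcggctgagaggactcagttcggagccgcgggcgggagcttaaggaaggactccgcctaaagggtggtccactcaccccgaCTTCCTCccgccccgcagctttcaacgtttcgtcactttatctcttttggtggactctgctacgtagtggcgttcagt
PLCG2, chr16:81738791-81739090, strand +: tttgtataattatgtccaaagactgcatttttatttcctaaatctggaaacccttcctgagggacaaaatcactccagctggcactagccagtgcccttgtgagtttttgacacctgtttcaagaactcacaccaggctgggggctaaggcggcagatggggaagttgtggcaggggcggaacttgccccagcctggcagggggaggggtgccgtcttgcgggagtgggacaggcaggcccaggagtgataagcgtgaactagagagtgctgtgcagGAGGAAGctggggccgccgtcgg
Of these, ITPR3, PRKCB and CD53 hold 1 octamer each, which reads on the minus strand of the window in ITPR3 and CD53. BTK holds 2 PU.1 cores in this window and PLCG2 holds 1.

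Genes of the pathway outside the 41 members were taken from 8 lists drawn up from general knowledge. Of their 111 genes 87 were found and 72 tested, and 15 were called higher and 7 lower with STK38 shRNA, which is 30.6% beside 31.0% of all genes. LYN, the main Src-family kinase that starts the signal in B cells, had 0.16 (limma adjusted p = 0.649), with 4.02 ± 0.54 in STK38 shRNA cells and 3.86 ± 0.20 in non-target cells (SD, n = 5 each). Without STK38 shRNA replicate 4 it was called higher, by 0.39 (adjusted p = 0.0320). In the surface list, 2 of 6 tested rose and 1 fell: PTPRC (CD45), the phosphatase that primes Src kinases, rose by 0.56 (adjusted p = 6.35e-05) and CD52 by 0.30, while CD24 fell by 0.39. Of 5 proximal kinases and phosphatases tested, FYN fell by 0.45 and PTPN6 (SHP-1), the phosphatase that CD22 recruits, was higher at no less than 1.19-fold, above background on 4 STK38 shRNA arrays and 0 non-target arrays. Of 5 other adaptors tested GAB1 was called lower, by at least 1.06-fold.

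Further down the branches the calls were mixed as well. In the PI3K list 3 of 12 tested rose and 1 fell. TSC1, which holds back mTOR, rose by 0.80 (adjusted p = 0.00316), FOXO3, a transcription factor that AKT inhibits, rose by 0.56 and its relative FOXO1 fell by 0.80. In the calcium list 2 of 12 rose and 2 fell: the kinase CAMK4 fell by 0.54 and the calcium pump ATP2B1 by 0.42, while the calcium sensor STIM1 was called higher by at least 1.09-fold. In the protein kinase C and NF-kappaB list 3 of 14 rose and 1 fell. CHUK, the kinase IKK alpha, rose by 0.85 (SE 0.087, limma adjusted p = 4.47e-06) with 7.17 to 7.36 in STK38 shRNA cells and 6.25 to 6.56 in non-target cells, PRKCI rose by 0.44 and the inhibitor TNFAIP3 (A20) fell by 0.53. In the RAS and MAP kinase list 3 of 11 rose and 0 fell. CDC42 rose by 0.51, MAP2K2 by 0.41 and RAC1 by 0.20; without STK38 shRNA replicate 4, RAC1 was not called (adjusted p = 0.0522) but SOS2, MAPK3 and RAC2, named after their values were seen, were called higher, which makes 5 of 11. Of 7 tested genes that the receptor induces early, JUN was the 1 called. It had 3.67, 3.67, 3.52, 3.75 and 3.90 on the STK38 shRNA arrays, against 2.52, 2.35, 2.30, 2.36 and 2.56 on the non-target arrays, a rise of 1.29 (SE 0.11, adjusted p = 7.16e-07), above background on 5 knockdown arrays and 1 control array, so the size of this rise is uncertain.

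The cells carried B cell markers in both groups. MS4A1, CD79A, CD79B, CD22 and CD74 were above background on all 10 arrays, and PAX5 was below it on all 10. Of 11 T cell markers 10 were below background on all arrays; CD247 was called lower, above background on 0 STK38 shRNA arrays and 1 non-target array. The mean of this list was 1.60 to 1.74 with STK38 shRNA and 1.66 to 1.72 with non-target shRNA. Of 7 monocyte markers 3 and of 6 NK cell markers 2 exceeded background on some array, with 0 called in either list by limma. These are named after their values were seen. NCAM1 exceeded it on 5 STK38 shRNA and 3 non-target arrays, and PRF1 on 3 and 2. For the monocyte markers these counts were 1 and 0 (ITGAM), 1 and 1 (S100A8) and 2 and 1 (S100A9). The monocyte list mean was 2.33 on STK38 shRNA replicate 4, 1.88 to 2.00 on the other knockdown arrays and 1.92 to 2.05 on the controls. The NK list mean was 1.96 on that replicate, 1.74 to 1.82 on the other knockdown arrays and 1.76 to 1.86 on the controls. Their part in the members' results was not tested.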

How the data were processed

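Total RNA (5 ug) from ST486 cells was hybridised to 1-colour Affymetrix U95Av2 arrays, per the labels. The authors deposited a log2 expression value for each of 12625 probe sets on 10 arrays, 5 per group. The submitters' processing notes name GCRMA and affy, with no version; these correct background and normalize across arrays, and the values fit a log2 scale. GCRMA pulls dim probe sets to a common floor, which shrinks their differences. Scanner files were not analysed here.

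Symbols came from the platform annotation, updated through Entrez identifiers to RefSeq GRCh38.p14; 10943 probe sets named 1 gene, 545 several and 1070 none. The 67 Affymetrix control probe sets and those with a mean under the 40th percentile (1.93) were left out. Groups were compared in R 4.3.3 with limma 3.58.1 (eBayes with trend, no covariate), with Benjamini-Hochberg adjustment over 7535 probe sets at 0.05. The method was also run on simulated data with independent arrays, no odd array and fewer changed probe sets than were called here. That run does not cover an array like STK38 shRNA replicate 4 or technical replicates. Single pairs used exact permutation tests. Background came from 23 mouse, yeast and reverse-strand control probe sets. Same-numbered arrays did not deviate together (correlations -0.21 to 0.19), so numbers were not taken as pairs. Alternatives covered scaling, filter, variance model, array weights, threshold, probe set choice, a replicate block and single arrays left out. All members, STK38, MYC and LYN were named whatever their values, with up to 3 called genes per pathway list and up to 2 per list of another cell type. Members and lists were chosen with earlier results of these data known. Plots used matplotlib 3.10.9.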

Additional observations from a re-analysis of the deposited data

Results flagged for a closer look

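Among the 70 groups of 5 arrays examined (35 tested members in each group), 4 held an array far from its fellows, where chance flags about 1 in 20 groups. BTK was 5.23 on STK38 shRNA replicate 4, where the other arrays of the group had 6.04 to 6.20. GRB2 was 2.35 on the same array, where the others had 3.14 to 3.30. Both genes kept their call without it. GRB2 was 4.28 on non-target replicate 4, where the other controls had 3.97 to 4.02, and PPP3CA was 2.12 on non-target replicate 1, where the other controls had 1.84 to 1.89, all below background.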

How the results depend on the processing

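Of the 12 called members, 11 kept their direction and call at an adjusted p of 0.05 in every alternative in which they were tested, though PRKCB did not pass the filter at the 60th percentile or when averaged over its probe sets; HCLS1 lost its call in 9 of 19, centring on array medians (adjusted p = 0.0534), no filter (0.0644) and array weights (0.0643) among them. PIK3CG was called with array weights (0.46, adjusted p = 0.00524) and without STK38 shRNA replicate 4. No other member tested but uncalled was called in any alternative; without a filter CD37, below background throughout, was called higher. With single arrays left out, 11 to 13 members were called, 3 to 5 higher and 8 lower, as were 1947 to 2817 probe sets and 16 to 25 other pathway genes; in the other settings at the same threshold 11 to 12 members were. At an adjusted p under 0.01, 10 members were called, 2 of them higher (HCLS1 and PLCG2 were not), with 8 other pathway genes and 1494 probe sets. The replicate block called 12 members, 4 higher and 8 lower, and 2159 probe sets, and changed no member's call. The mean over all probe sets of a gene gave a fall of 1.39 for STK38 and of 0.57 for RASGRP2. The 5 pairs called became 3 with means over all probe sets, without PRKCB over PRKCD and CD37 over CD53. With single arrays left out, 0 to 5 pairs were called. These were 5 without non-target replicate 4, 3 without STK38 shRNA replicate 4 or non-target replicate 5, and 0 without any other array. With 4 against 5 arrays, even groups wholly apart can get an exact p of 0.0159, which passes adjustment only if several pairs reach it. These counts therefore cannot show whether a difference depends on 1 array. With single arrays left out, CD79A over CD79B kept 0.59 to 0.77 and ITPR3 over ITPR2 kept -0.85 to -0.64. The exact test on same-numbered pairs called 0, and its smallest p is 0.0625. Without the ACTB and GAPDH reverse-strand controls, a choice made after seeing the data, background was lower and 29 members were above it on all arrays and 3 on none. Dim probe sets limit what can be said of CR2, CD37, LCP2, VAV2 and CBL, which were not tested. The same holds for LAT, PPP3CA and NFATC1, which were tested but lay below the main background on all arrays.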
